A study of Bursaphelenchus xylophilus with 12 samples.

Results

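The comparison described here is that of adult pine wood nematodes after 24 h in emamectin benzoate with worms after 24 h in the adjuvant alone. It takes 6 of the 12 libraries of the series, chosen by their titles: 3 of worms in emamectin benzoate (EB24) and 3 of the controls (EC24). Bursaphelenchus xylophilus, strain NB-6, is the nematode that causes pine wilt disease. Worms of all groups had grown on the grey mould Botrytis cinerea. EB24 worms were immersed in 0.1 mg/L emamectin benzoate at 25 °C, and EC24 worms in the adjuvant, octylphenol polyoxyethylene-10 with n-butyl alcohol, at the strength that the agent solution holds. No label spells out EC, and the adjuvant groups appear as ON where the treatments are described, so EC24 was taken as the adjuvant group by elimination. Each library came from 200 whole adults, so a change in the proportion of sexes or tissues and a change in RNA per cell cannot be told apart. The labels do not say whether replicates were separate cultures, and p-values then rest on the spread among these libraries, which may be technical. The other 6 libraries are the same agents at 12 h (EB12 and EC12) and serve as a comparison.

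Emamectin benzoate is an avermectin. Avermectins open glutamate-gated chloride channels, a class of ligand-gated channel found in nerve and muscle of invertebrates, and they paralyse nematodes by stopping pharyngeal pumping and movement. It is injected into pine trunks to protect trees from this nematode. The table lists genes by ID (BXY for annotated genes, XLOC for other loci) without symbols or descriptions, so no ID is tied here to a channel, a detoxification enzyme or any other function.

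The 6 libraries fell cleanly by agent. Values for 18036 IDs were FPKM, that is fragments counted per kilobase of a gene and divided by library size. The summed FPKM was 916720 to 929471 in EB24 and 932367 to 944595 in EC24. Read totals are unknown, but the steps between low values gave depths of 1.202, 1.66 and 1.23 for EB24 replicates 1, 2 and 3 and of 1 and 1.18 for EC24 replicates 2 and 3, relative to EC24 replicate 1. A second reading, lower by a factor of 2, had 0.558, 0.793 and 0.502 of the height of the first for EB24 replicates 1, 2 and 3, giving depths of 0.603, 0.832 and 0.616. For EC24 replicate 3 it had 0.375 of the height and gave 0.590, and for EC24 replicate 2 a reading of 2.00 had 0.244. By the first reading each EB24 library was deeper than each EC24 library, by the second readings the order differs, and the part of depth in the values of low genes was not tested. Libraries of 1 group correlated across genes at 0.990 to 0.994 (Pearson), and libraries of different groups at 0.963 to 0.966. Principal component 1 held 75.1% of the variance and placed the EB24 libraries at -30.8 to -28.8 and the EC24 libraries at 29.2 to 30.2. EC24 replicate 1 stood apart on component 2 (8.64% of the variance), at -20.2 against 8.61 and 11.3 for the other EC24 libraries. Replicates were tight, the median over genes of the SD being 0.09 log2 units in EB24 and 0.11 in EC24, against 0.26 in both EB12 and EC12.

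A large share of the genes tested differed between the agents at 24 h, by small amounts for the most part. The filter, an FPKM of 1 or more in 3 or more of the 6 libraries, left 13392 IDs (13193 BXY and 199 XLOC), of which 7220 or 53.9% passed the test (limma on log2(FPKM + 1), Benjamini-Hochberg adjusted p under 0.05). The count was 6578 to 7373 under other scalings, and 2675 when the 12 h libraries, which vary more, shared the estimate of the spread. Of the 7220, 4903 were higher (36.6% of the genes tested) and 2317 lower (17.3%) in EB24. The groups did not overlap in 8175 genes (61.0%), higher in 5494 (41.0%) and lower in 2681 (20.0%). The median size of a called difference was 0.50 log2 units, and the smallest was 0.12. Of the 6172 genes not called, 4520 (73.2%) had a 95% interval that lay within 1.5-fold either way.

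On the log2(FPKM + 1) scale the balance of higher and lower genes differed between size classes. Called differences of 0.25 to 0.5 log2 units were higher in 2022 genes and lower in 817, and those of 0.5 to 1 in 2001 and 913. At 1 to 2 log2 units the counts were 345 and 321, and at 2 or more they were 7 (0.0523% of genes tested) and 32 (0.239%). At least 2-fold differences (5.26% of genes tested) were thus split evenly as deposited, with 352 higher (2.63%) and 353 lower (2.64%), while 4-fold differences lay mostly on the lower side. These counts moved with the pseudocount: with 0.5 in place of 1 there were 15 genes at least 4-fold higher and 37 lower, and with 0.1 there were 50 and 56.

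**Figure D1:**
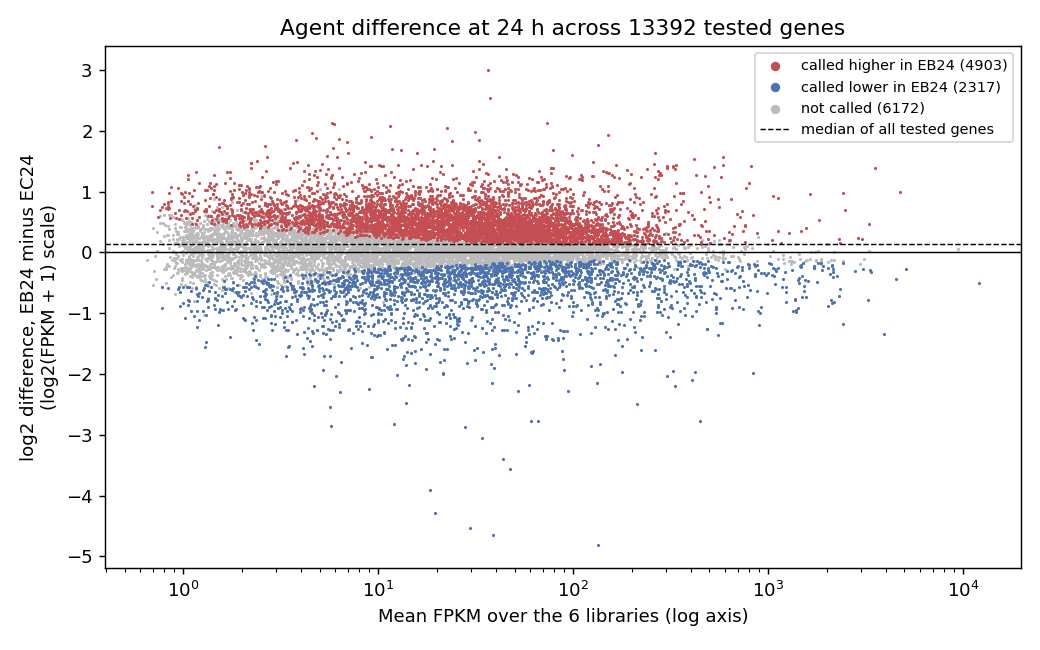
Each point is 1 of the 13392 tested genes, with its mean FPKM over the 6 libraries on a log axis and its log2 difference, EB24 minus EC24, on the log2(FPKM + 1) scale. Red points passed the test as higher (4903) and blue points as lower (2317). The lower side reaches -4.81 and the higher side 3.00, and the dashed median of all genes lies at 0.14.

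The excess of small differences on the higher side moved with the scaling. As deposited, the median of all tested genes stood at 0.14 log2 units, so a gene at 0 lay below the median gene. After median ratio scaling, which sets that median to 0.00, 3215 genes were higher and 3386 lower, or 48.7% higher against 67.9% as deposited. Genes at least 2-fold changed then numbered 196 higher and 516 lower. The split was 3548 higher and 3030 lower after quantile normalization and 3377 and 3253 with equal medians. It was 5185 and 2188 with equal FPKM sums. Across these 4 scalings 5310 calls kept their direction and their call (3179 higher, 2131 lower), among them 348 of the 352 and all 353 of the genes at least 2-fold changed. Genes at least 4-fold higher numbered 3 to 7 under the 4 scalings and those at least 4-fold lower 31 to 42.

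The 7 genes at least 4-fold higher in EB24 were counted on the log2(FPKM + 1) scale. Their means were 10.04 to 120.0 FPKM in EB24, with a median of 36.7, and 1.57 to 26.7 in EC24. Low genes with larger ratios of means fall outside the count, such as BXY_0321500 at 18.0-fold. None of the 7 overlapped between the groups, and neither did 61.0% of all genes tested. The 7 were picked for a large difference, so this adds no evidence. BXY_0356800 had the largest positive log2 difference. Its FPKM was 67.5, 63.4 and 66.3 in the EB24 libraries, against 7.29, 7.88 and 6.80 in the EC24 libraries, an 8.97-fold ratio of means. Every EB24 library was far above every EC24 library, and the log2 difference was 3.00 ± 0.08 (SE; limma adjusted p = 3.99e-08). At 12 h this gene was uneven, at 204, 38.4 and 83.3 FPKM in EB12 and 428, 167 and 164 in EC12.

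BXY_0182200 followed, with 63.2, 66.0 and 63.8 FPKM in EB24, against 9.09, 10.02 and 11.9 in EC24 (log2 difference 2.54 ± 0.09, limma adjusted p = 1.79e-07). It was low in all 12 h libraries, at 4.12 to 10.06 FPKM in EB12 and 2.63 to 10.5 in EC12, so its EB24 level was the highest in the series. BXY_0030000 had the same shape at a lower level. It stood at 19.7, 19.1 and 18.9 FPKM in EB24, 3.20, 4.47 and 3.80 in EC24, 1.52 to 3.23 in EB12 and 1.34 to 2.17 in EC12 (log2 difference at 24 h 2.08 ± 0.12, limma adjusted p = 1.68e-06). BXY_1010600 was below the 1 FPKM of the filter in all 12 h libraries, at 0.320 to 0.770 FPKM in EB12 and 0.420 to 0.890 in EC12. It was not tested in the fit of the 12 h libraries alone. At 24 h it stood at 10.2, 9.69 and 10.3 FPKM in EB24, against 1.03, 2.13 and 1.55 in EC24 (log2 difference 2.12 ± 0.17, limma adjusted p = 1.1e-05). For these 3 genes no 12 h library reached the lowest EB24 library.

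BXY_1563600 and BXY_0046300 reached or passed their EB24 level in 12 h libraries. BXY_1563600 stood at 121, 121 and 118 FPKM in EB24, against 25.6, 28.1 and 26.5 in EC24 (log2 difference 2.13 ± 0.06, limma adjusted p = 4.27e-08). Its 12 h libraries held 182 to 387 FPKM in EB12 and 188 to 323 in EC12, so every 12 h library lay above EB24. BXY_0046300 was low and less even, at 7.83, 12.8 and 9.96 FPKM in EB24 and 0.790, 2.35 and 1.77 in EC24 (log2 difference 2.11 ± 0.24, limma adjusted p = 0.00011). It stood at 3.14 to 19.9 FPKM in EB12 and 7.84 to 12.7 in EC12, overlapping EB24. The seventh gene, XLOC_009963, stood at 3.22 to 8.60 FPKM in EB12 and 3.98 to 13.8 in EC12, below its EB24 libraries. BXY_0640100 (3.85-fold by ratio of means), outside this group with a log2 difference below 2, had the smallest p among the higher genes. It was at 232, 244 and 239 FPKM in EB24, against 61.4, 63.8 and 60.5 in EC24 (log2 difference 1.93 ± 0.05, limma adjusted p = 3.99e-08). Its 12 h libraries held 652 to 913 FPKM in EB12 and 658 to 761 in EC12.

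The 32 genes at least 4-fold lower in EB24 were counted on the log2(FPKM + 1) scale too. They had means of 0.673 to 154 FPKM in EB24 (median 6.54), against 8.29 to 782 in EC24 (median 62.1). None of the 32 overlapped between the groups, against 61.0% of all genes tested, which again follows from how they were picked. BXY_1484600 had the largest negative difference. It stood at 8.26, 10.02 and 7.00 FPKM in EB24, against 243, 262 and 276 in EC24, and was 30.9-fold lower by the ratio of means. The log2 difference was -4.81 ± 0.11 (limma adjusted p = 3.07e-08). At 12 h the libraries of both agents were uneven and overlapped, at 7.10, 129 and 1.33 FPKM in EB12 and 26.9, 46.9 and 3.24 in EC12.

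BXY_1362800 had the largest ratio of means among the lower genes named here, 37.9-fold. Its FPKM was 1.19, 0.960 and 0.870 in EB24, against 43.6, 37.1 and 33.9 in EC24 (log2 difference -4.28 ± 0.12, limma adjusted p = 6.2e-08). In EB12 it stood at 0.430, 11.03 and 0.120 FPKM, and in EC12 at 1.00, 3.82 and 0, so EC24 was above every other library of the series. BXY_1065100 had the smallest p of all genes. It stood at 6.36, 6.60 and 6.65 FPKM in EB24, against 86.2, 85.2 and 91.8 in EC24 (log2 difference -3.56 ± 0.07, limma adjusted p = 1.86e-08). Its 12 h libraries held 2.29 to 15.1 FPKM in EB12 and 4.37 to 13.3 in EC12, a range that includes EB24 and lies far below EC24.

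**Figure D2:**
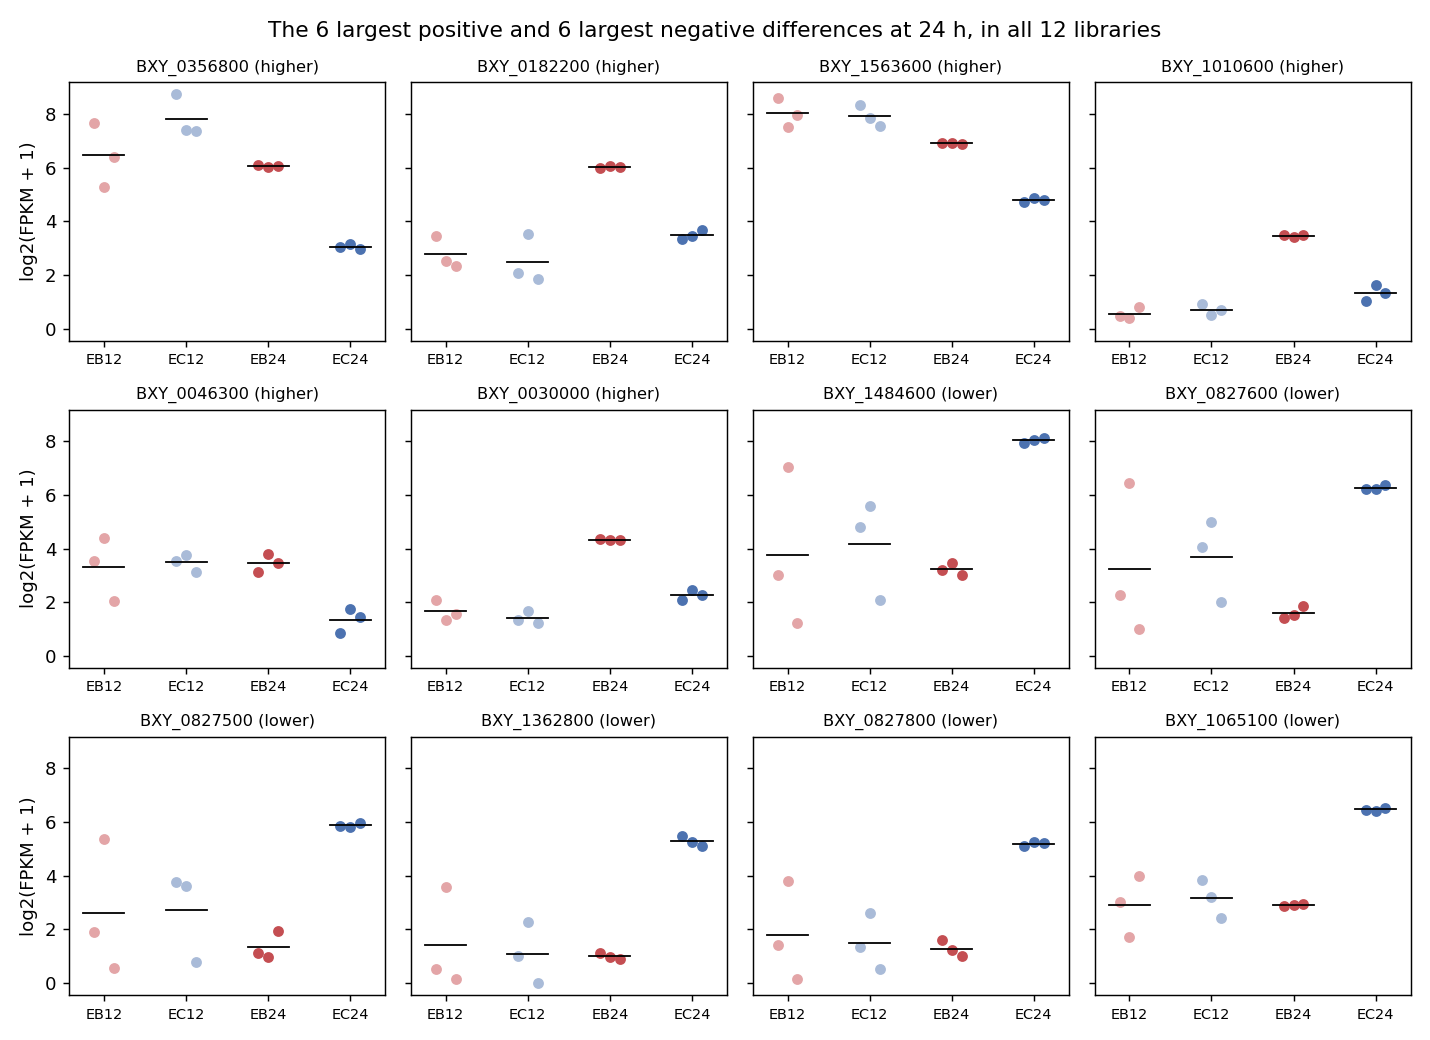
Each panel shows 1 gene in all 12 libraries as log2(FPKM + 1), points being libraries and lines group means of 3. The 6 genes with the largest positive and the 6 with the largest negative differences at 24 h are shown. The 24 h points lie apart by agent in every panel, which the rule of choice required, while the 12 h points of EB12 and EC12 overlap in every panel.

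Some of the large differences were found in genes with consecutive ID numbers. The BXY IDs run without a gap in steps of 100. Whether that order follows position in the genome is not given in the sources used here. Of the 349 BXY genes at least 2-fold lower, 51 (14.6%) stood in runs of at least 2 consecutive IDs from the same list. Neighbours were counted for each gene and each side, so the same ID can count more than once. Of the 536 tested neighbour positions of the lower genes, 10.1% held a gene also at least 2-fold lower and 2.24% one at least 2-fold higher. Of all tested BXY genes 2.65% were in the lower list. Of the 345 genes at least 2-fold higher, 31 (8.99%) stood in such runs. Of their 533 tested neighbour positions, 32 held genes of the same list and 12 (2.25%) of the other, where 2.62% of all tested BXY genes were in the higher list. No test was made of these shares. Reads that near-identical or overlapping neighbours share could be split between them by the counting, so values of neighbours may not be independent.

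A group of IDs around BXY_1385400 was lower in EB24 by similar ratios at very different levels. BXY_1385200 stood at 61.4, 61.8 and 66.0 FPKM in EB24, against 353, 355 and 373 in EC24 (log2 difference -2.50 ± 0.05, limma adjusted p = 1.92e-08). BXY_1385400 stood at 118, 118 and 120 FPKM in EB24, against 502, 561 and 580 in EC24 (log2 difference -2.19 ± 0.06, limma adjusted p = 4.27e-08). The next IDs continued the pattern at lower levels. BXY_1385500 was at 21.4, 22.0 and 19.4 FPKM in EB24, against 96.4, 94.97 and 102.7 in EC24. BXY_1385600 was at 2.86, 2.52 and 1.59 FPKM in EB24, against 11.4, 9.63 and 10.4 in EC24. These 4 genes were lower by 5.72, 4.61, 4.69 and 4.51-fold by ratio of means. BXY_1385300 and BXY_1385700, inside and beside this group, changed the other way, by 0.59 and 0.67 log2 units (limma adjusted p = 0.0249 and 0.00529). At 12 h BXY_1385200 stood at 22.5 to 31.4 FPKM in EB12 and 14.4 to 56.1 in EC12, and BXY_1385400 at 16.6 to 47.9 and 13.3 to 69.8, below every 24 h library of these genes.

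A second group held 3 of the 6 largest negative differences. BXY_0827500 stood at 1.18, 0.960 and 2.83 FPKM in EB24, against 56.8, 55.4 and 60.9 in EC24 (log2 difference -4.53 ± 0.22, limma adjusted p = 7.02e-07). BXY_0827600 was at 1.69, 1.89 and 2.64 FPKM in EB24, against 72.9, 73.0 and 81.5 in EC24 (log2 difference -4.65 ± 0.12, limma adjusted p = 3.99e-08). BXY_0827800 was at 2.01, 1.38 and 1.00 FPKM in EB24, against 33.4, 37.1 and 36.0 in EC24 (log2 difference -3.91 ± 0.15, limma adjusted p = 2.15e-07). The ID between them, BXY_0827700, did not reach the filter, at 0, 0 and 0.100 FPKM in EB24 and 0.830, 0.940 and 0 in EC24. At 12 h the 3 genes were high in the same library, EB12 replicate 2, at 40.8, 85.9 and 12.98 FPKM, and at 0.470, 1.02 and 0.120 in EB12 replicate 3. The EC12 libraries were uneven too. In EC12 replicates 1, 2 and 3, BXY_0827500 stood at 12.46, 11.16 and 0.74 FPKM, BXY_0827600 at 15.65, 30.47 and 2.98, and BXY_0827800 at 1.53, 5.04 and 0.43.

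Other runs of 3 IDs were lower as well. BXY_0522200, BXY_0522300 and BXY_0522400 had means of 30.0, 13.6 and 4.55 FPKM in EB24 and of 94.1, 63.0 and 24.2 in EC24, with log2 differences of -1.62, -2.15 and -2.19. The next ID, BXY_0522500, was far more abundant and differed less, with a mean of 948 FPKM in EB24, against 1417 in EC24 (log2 difference -0.57, limma adjusted p = 0.000287). BXY_1715100, BXY_1715200 and BXY_1715300 had means of 77.7, 40.0 and 41.8 FPKM in EB24 and of 250, 136 and 114 in EC24, with log2 differences of -1.68, -1.75 and -1.43. On the higher side the longest run was BXY_0197000, BXY_0197100 and BXY_0197200, with means of 12.1, 85.7 and 21.9 FPKM in EB24 and of 5.36, 42.3 and 10.4 in EC24. They differed by 1.05, 1.00 and 1.01 log2 units (limma adjusted p = 0.000701, 8.28e-06 and 7.7e-05), and by 0.92, 0.85 and 0.87 after median ratio scaling.

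**Figure D3:**
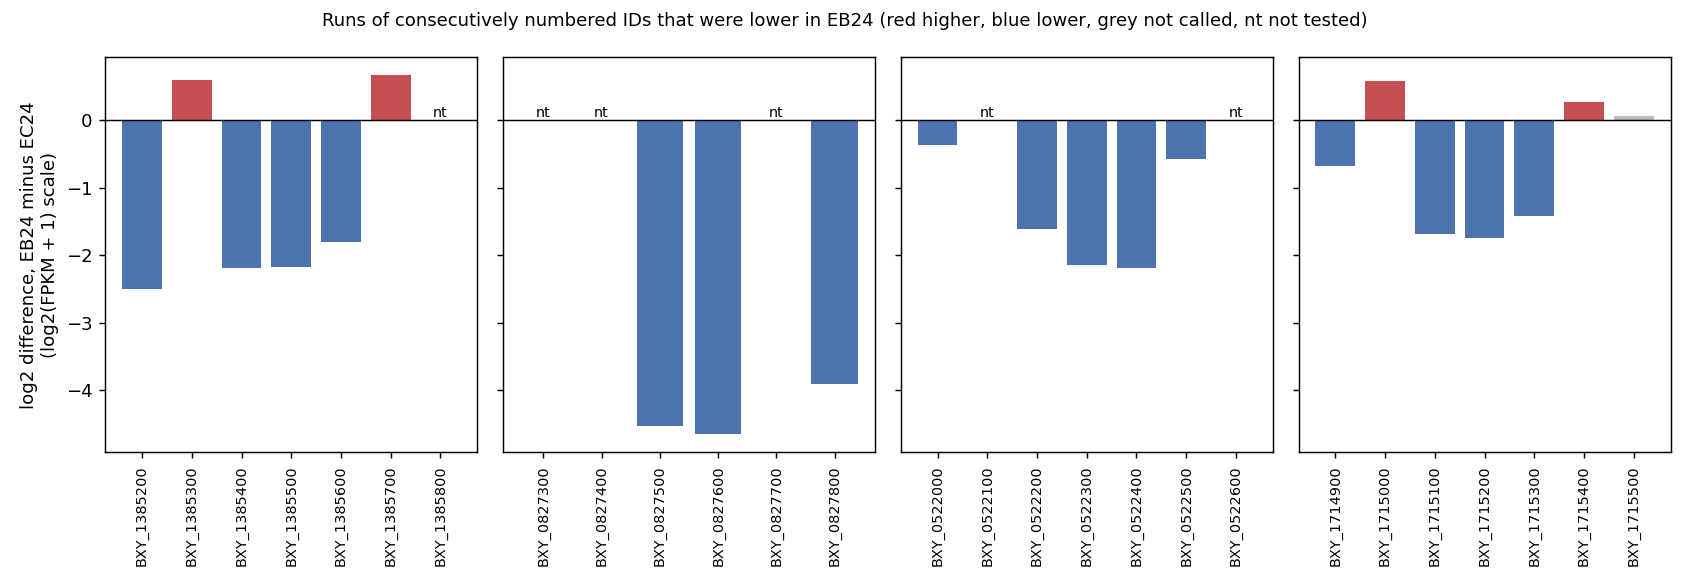
Bars are log2 differences, EB24 minus EC24, on the log2(FPKM + 1) scale for IDs in the order of their numbers around 4 runs of lower genes. Blue bars passed the test as lower, red bars as higher, grey did not pass, and IDs marked nt were not tested. Values in the runs reach -4.65, while flanking IDs such as BXY_1385300, BXY_1385700 and BXY_1715000 point up.

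As deposited, the most abundant genes were lower in EB24 more often than the rest. Of the 124 genes with a mean of at least 1000 FPKM, 19 were higher and 69 lower in EB24, and of the 664 genes at 200 to 1000 FPKM, 192 were higher and 274 lower. Below 200 FPKM higher calls outnumbered lower ones in each class: 1399 and 555 of 3055 genes at 50 to 200, 1418 and 505 of 3080 at 20 to 50, 1308 and 628 of 3632 at 5 to 20, and 567 and 286 of 2837 under 5. Precision was lower in the less abundant classes, with a median SE of 0.06 at 50 to 200 FPKM and 0.19 under 5. Lower calls exceeded higher ones in both abundant classes under all 4 scalings. The counts were 92 to 10 at 1000 FPKM or more and 363 to 122 at 200 to 1000 after median ratio scaling. After quantile normalization they were close, at 37 to 30 and 234 to 228, and the median log2 differences were 0.01 and -0.002. Genes at least 2-fold changed were then more often higher, with 2 lower and 5 higher at 1000 FPKM or more and 27 lower and 34 higher at 200 to 1000. In the classes under 200 FPKM the excess of higher calls turned round after median ratio scaling at 50 to 200 (893 higher, 900 lower), at 5 to 20 (862 and 864) and under 5 (367 and 371), and with equal medians under 5 (347 and 384).

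**Figure D4:**
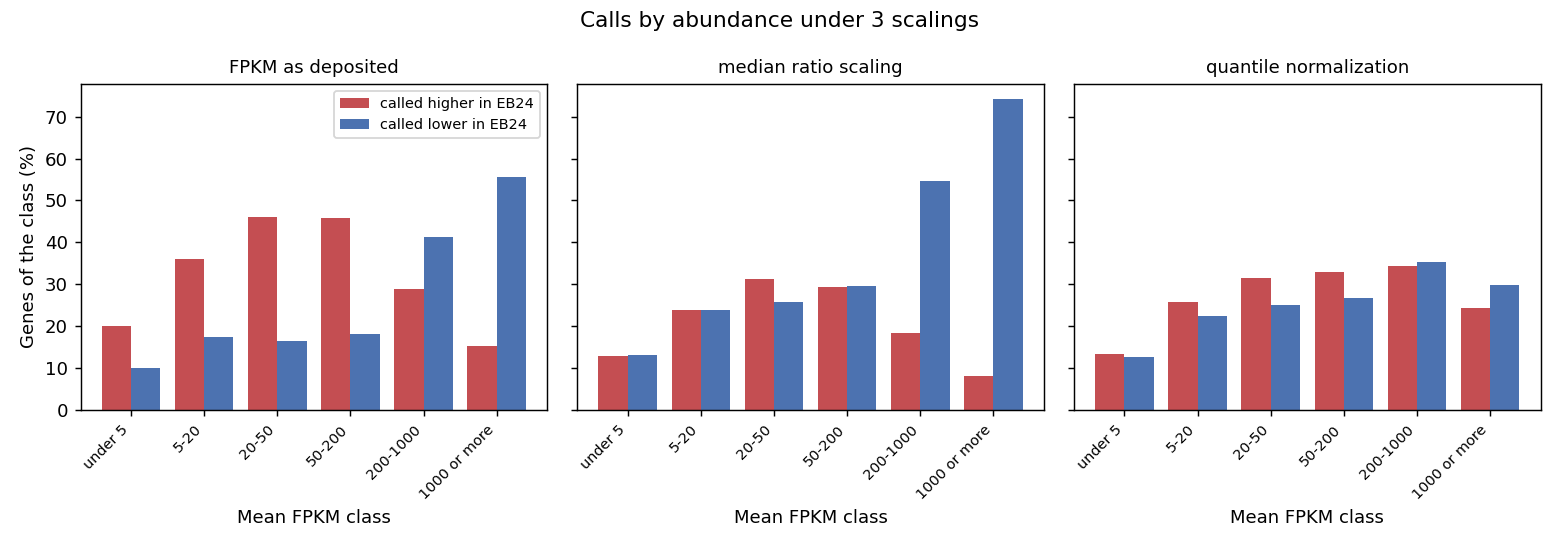
Bars give the percentage of genes called higher (red) and lower (blue) in EB24 in 6 classes of mean FPKM, for the FPKM as deposited and after 2 scalings. As deposited, 15.3% of the genes at 1000 FPKM or more were higher and 55.6% lower, and at 20 to 50 FPKM 46.0% were higher and 16.4% lower.

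In FPKM units the genes called lower lost a sum of similar size to that gained by the genes called higher. Loss and gain here mean EB24 against EC24 at 24 h, not a change over time. FPKM is divided by library size and library sums were close, so a balance of this kind is largely set by the unit. Genes called higher summed to 350479 ± 2335 FPKM in EB24 and 244168 ± 1621 in EC24 (SD, n = 3), or 37.9% and 26.0% of all FPKM. Genes called lower summed to 270937 ± 3486 in EB24 and 392337 ± 4099 in EC24, or 29.3% and 41.8%. The genes were grouped by their own change, so these sums only describe its size. The loss was carried by fewer genes than the gain: 100 genes made up 50.1% of the loss and 34.3% of the gain, 50% of which took 325 genes. The lower list is also the shorter, with 2317 genes against 4903, and these shares do not allow for that. The 100 most abundant genes of a library held 22.2% to 23.0% of its FPKM in EB24 and 24.3% to 26.1% in EC24, without overlap (two-sided exact permutation p = 0.1, the lowest value 3 against 3 can reach).

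The largest loss was that of BXY_0569100, the most abundant ID of all 6 libraries. It stood at 10231, 9766 and 9836 FPKM in EB24, against 14227, 14047 and 14219 in EC24 (log2 difference -0.51 ± 0.06, limma adjusted p = 0.000156). At 12 h it was at 9569 to 12151 FPKM in EB12 and 10525 to 11552 in EC12, so EC24 was above all other libraries. BXY_0804400 stood at 2199, 2279 and 2236 FPKM in EB24, against 5517, 5783 and 5689 in EC24 (log2 difference -1.34 ± 0.05, limma adjusted p = 2.58e-07). BXY_0544900 was at 1513, 1442 and 1530 FPKM in EB24, against 3160, 3426 and 3535 in EC24 (log2 difference -1.17 ± 0.06, limma adjusted p = 9.91e-07). Both were uneven at 12 h, at 418 to 2013 and 171 to 1080 FPKM in EB12 and 466 to 1982 and 309 to 1240 in EC12.

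The largest gain was that of BXY_0906600. It stood at 5335, 4980 and 5100 FPKM in EB24, against 1842, 1990 and 2076 in EC24 (log2 difference 1.38 ± 0.06, limma adjusted p = 5.14e-07). BXY_0020300 was at 6150, 6513 and 6196 FPKM in EB24, against 2939, 3336 and 3234 in EC24 (log2 difference 0.99 ± 0.07, limma adjusted p = 4.58e-06). BXY_0356600 was at 3185, 3179 and 3255 FPKM in EB24, against 1703, 1625 and 1589 in EC24 (log2 difference 0.97 ± 0.05, limma adjusted p = 1.32e-06). At 12 h BXY_0906600 and BXY_0020300 stood at 4115 to 4485 and 4422 to 6035 FPKM in EB12 and at 2648 to 4551 and 3332 to 5249 in EC12. BXY_0356600 held only 31.5 to 117 FPKM in EB12 and 68.0 to 199 in EC12, far below both groups at 24 h.

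**Figure D5:**
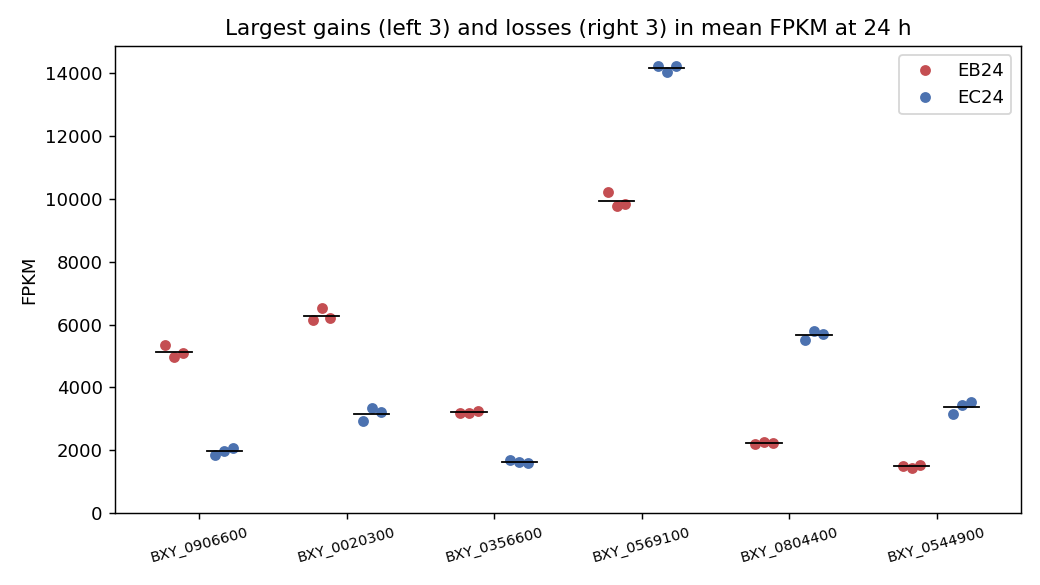
FPKM of the 3 genes with the largest gains and the 3 with the largest losses in mean FPKM, on a linear axis from 0, with points for the 3 EB24 (red) and 3 EC24 (blue) libraries and lines for their means. BXY_0569100 lies near 9944 in EB24 and 14164 in EC24, and the groups do not overlap for any of the 6 genes.

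Among genes with a mean of at least 200 FPKM, the largest positive log2 differences were those of BXY_1259500, BXY_0644000, BXY_1425400 and BXY_0030300. They averaged 396 ± 16.7, 872 ± 42.2, 622 ± 24.6 and 382 ± 17.4 FPKM in EB24 and 127 ± 5.64, 296 ± 33.5, 215 ± 8.22 and 140.4 ± 25.0 in EC24 (SD, n = 3), ratios of 2.72 to 3.13. On the lower side the largest differences were those of BXY_1385200 and BXY_1385400, described above, with BXY_0364600 and BXY_1194500. BXY_0364600 stood at 115, 109 and 114 FPKM in EB24, against 889, 738 and 719 in EC24 (log2 difference -2.78 ± 0.08, limma adjusted p = 4.83e-08). BXY_1194500 stood at 163, 157 and 143 FPKM in EB24, against 704, 625 and 659 in EC24 (log2 difference -2.10 ± 0.06, limma adjusted p = 8.99e-08), and at 11.4 to 87.7 FPKM in EB12 and 27.8 to 85.6 in EC12.

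Some abundant genes were level between the agents as deposited. BXY_1433200 averaged 304 ± 4.64 FPKM in EB24 and 303 ± 7.45 in EC24 (95% interval of the log2 difference -0.10 to 0.11). BXY_1736600 averaged 220 ± 1.95 FPKM in EB24 and 219 ± 5.48 in EC24, and BXY_1651100 322 ± 9.17 in EB24 and 320.4 ± 3.47 in EC24, with intervals of -0.10 to 0.11 and -0.09 to 0.11. Relative to the median gene they lay lower: after median ratio scaling their log2 differences were -0.15, -0.14 and -0.14, and all 3 were called lower (limma adjusted p = 0.0238, 0.0176 and 0.0242).

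Hardly any gene met a strict rule for being off in 1 group and on in the other. The rule leaves out genes that are low but above 0.5 FPKM in the lower group, such as BXY_1362800, described above, at 0.870 to 1.19 FPKM in EB24. A single ID, BXY_0321500, was under 0.5 FPKM in all EC24 libraries and at least 2 in all EB24 libraries, at 2.70, 2.36 and 3.60 FPKM in EB24, against 0.170, 0.170 and 0.140 in EC24 (log2 difference 1.73 ± 0.19, limma adjusted p = 7.49e-05). It was at most 0.150 FPKM in EB12 and 0.210 in EC12. Conversely, a single ID, BXY_0484800, met the rule, at 0.290, 0.420 and 0 FPKM in EB24, against 2.44, 2.08 and 2.65 in EC24 (log2 difference -1.47 ± 0.20, limma adjusted p = 0.00029). IDs listed at 0 numbered 2333 to 2544 in EB24 and 2715 to 2761 in EC24. The EB24 libraries were the deeper ones by the first reading of depth, but the order differs by the second readings. The part of depth in these counts was not tested.

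The 12 h libraries gave no comparable set of differences. Fitted alone in the same way, EB12 against EC12 gave 0 calls among 12931 genes (0.0%), with 531 at an unadjusted limma p under 0.05. Replicates varied more at 12 h, with a median SD over genes of 0.26 log2 units in both groups, against 0.09 in EB24 and 0.11 in EC24. A difference of a given size is thus harder to call at 12 h, and 0 calls do not show that the agent had no effect then. The difference at 24 h minus that at 12 h passed an interaction test over all 12 libraries in 1145 of 13768 genes (8.32%). The genes that differed at 24 h were looked up there, in libraries that share none with the 24 h comparison. Of the 353 genes at least 2-fold lower at 24 h, 333 were tested at 12 h, with a median log2 difference, EB12 minus EC12, of 0.45 and positive values in 250. Of the 352 at least 2-fold higher, 326 were tested, with a median of 0.10 and 207 positive. Over all 12666 genes tested at both times the median was -0.05 and 41.7% were positive. Few of these genes were apart at 12 h: EB12 and EC12 did not overlap in 12 (3.40%) of the 353 lower genes and in 24 (6.82%) of the 352 higher ones, against 1318 (9.84%) of all 13392. EB12 was the higher in 8 and the lower in 4 of the 12, in 14 and 10 of the 24, and in 317 and 1001 of the 1318. With 1 library at 12 h left out, the median over all 353 lower genes dropped to 0.09 when EB12 replicate 1 was the one omitted and to 0.16 for EC12 replicate 3, and reached 0.74 for EB12 replicate 2, against 0.42 with all 6. For the 352 higher genes it was 0.00 with EC12 replicate 1 omitted, 0.06 with EB12 replicate 1 omitted and 0.17 with EC12 replicate 2 omitted, against 0.09 with all 6.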

How the data were processed

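The authors deposited FPKM values, rounded to 2 decimals, in a single table. Per the submitters' processing notes TopHat2 2.1.1 was used; build, annotation, counting tool, strand and filters are not stated in the sources used here. Columns, groups and replicate numbers were matched through library titles. Values were tested on log2(FPKM + 1), which understates the change of low genes, using limma 3.58.1 in R 4.3.3 (eBayes with trend), two-sided, Benjamini-Hochberg adjusted over all genes tested. The fit was tested on simulated data. FPKM is scaled to the library, so abundant genes that change shift all others. Relative depth is the most frequent ratio to EC24 replicate 1 among IDs at 0.1 to 0.6 FPKM.

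Genes named are the 6 largest differences each way (no overlap, at least 5 FPKM in the higher group), the 4 largest each way at 200 FPKM or more, the 3 largest FPKM gains and losses, genes off in one group, 1 XLOC ID each way, 3 level abundant genes, the 2 smallest p-values each way and the longest ID run each way. Other runs and the neighbours of runs were chosen after their values were seen. The comparison and these rules were chosen with earlier results of these data known.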

Additional observations from a re-analysis of the deposited data

Results flagged for a closer look

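The agent difference at 24 h was set against that at 12 h as an interaction over all 12 libraries (limma, adjusted over 13768 genes), where 1145 genes (8.32%) passed. Of the 39 genes named by rule, 20 passed, and each was chosen for its value at 24 h, so they are no separate evidence that the times differ. The 24 h difference was larger, in log2 units, by 4.38 for BXY_0356800, 2.57 for XLOC_009963, 2.27 for BXY_1010600, 2.24 for BXY_0182200 and 2.02 for BXY_1563600. It was larger by 1.83 for both BXY_0030000 and BXY_0640100, by 1.78 for BXY_0321500, 1.47 for BXY_1259500, 1.22 for BXY_1425400, 1.05 for BXY_0197200 and 1.01 for BXY_0906600. For lower genes the 24 h difference minus the 12 h difference was -4.62 for BXY_1362800, -4.22 for BXY_0827800, -3.32 for BXY_1065100, -2.5 for BXY_1385200 and -2.47 for BXY_0364600. It was -2.17 for XLOC_013747, -2.15 for BXY_1385500 and -1.68 for BXY_1385600. The limma adjusted p of these 20 was 0.000953 to 0.0465. The values include the 12 h differences, none of which was called. Some of these had the opposite sign, at -1.37 ± 0.60 (SE) for BXY_0356800, -0.53 ± 0.48 for XLOC_009963 and 0.33 ± 0.93 for BXY_1362800. Others had the same sign, such as 0.30 ± 0.49 for BXY_0182200. BXY_1484600, BXY_0827500 and BXY_0827600, at -4.40, -4.43 and -4.22, did not pass (limma adjusted p = 0.112, 0.0763 and 0.102), and their 12 h replicates were uneven.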

How the results depend on the processing

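The 7220 calls became 6135 to 7447 with any 1 library left out, 6504 to 7204 with other pseudocounts or filters, and 2675 (2013 higher, 662 lower, 197 at least 2-fold lower) when all 12 libraries shared 1 spread. That fit adds the more variable 12 h libraries. Genes called higher numbered 3215 after median ratio scaling. Those at least 2-fold higher numbered 196 after median ratio scaling, 225 after quantile normalization, 202 with equal medians and 569 with a pseudocount of 0.1. With any 1 library left out 5514 calls were kept in all 6 fits. With all 12 libraries in the fit BXY_0356600, BXY_0569100, BXY_0804400 and BXY_0544900 were no longer called (limma adjusted p = 0.128, 0.0579, 0.107 and 0.172). Quantile normalization set BXY_0569100 to 0 by construction, since it tops every library. The level genes changed sign: BXY_1433200, BXY_1736600 and BXY_1651100 stood at -0.15, -0.14 and -0.14 after median ratio scaling and at -0.12, -0.12 and -0.12 with equal medians. With any 1 library left out they ranged over -0.0116 to 0.0234, -0.0108 to 0.0248 and -0.0115 to 0.0293. Samples with the same replicate number did not deviate together (correlations of 0.04, 0.04 and -0.02), and the fit with a replicate block called 6898 genes. Precision was lowest under 5 FPKM, where the median SE was 0.19. The 12 h medians with a library omitted were added after seeing the data.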

Other observations

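Of the 199 XLOC loci tested, which carry no BXY number, 37 (18.6%) were higher and 25 (12.6%) lower in EB24, against 36.9% and 17.4% of the 13193 BXY genes, and the median level was 4.14 FPKM against 21.9. Of all genes with a mean under 5 FPKM, 567 of 2837 were higher and 286 lower, and the difference between XLOC and BXY was not tested. XLOC_009963 stood at 32.7, 40.9 and 36.4 FPKM in EB24, against 9.32, 7.66 and 7.50 in EC24 (log2 difference 2.04 ± 0.11, limma adjusted p = 1.37e-06). XLOC_013747 stood at 1.76, 1.91 and 2.21 FPKM in EB24, against 7.41, 9.34 and 9.10 in EC24 (log2 difference -1.70 ± 0.14, limma adjusted p = 1.33e-05).

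Pairs of consecutive IDs on the higher side, chosen after their values were seen, included BXY_1195300 and BXY_1195400, at means of 6.48 and 11.1 FPKM in EB24 and 1.08 and 3.98 in EC24. BXY_1147200 and BXY_1147300 averaged 7.06 and 9.50 FPKM in EB24 and 2.35 and 2.21 in EC24, and BXY_1147500, the second ID after them, 18.6 and 5.01.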
